A study of Mus musculus with 2 samples.

Results

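Ketone bodies and branched-chain amino acids are fuels that mitochondria break down to acetyl-CoA and related acids, and the 8 genes described here encode the steps by which a heart cell takes them up and burns them: Oxct1, Bdh1, Acat1, Slc16a1, Bcat2, Bckdha, Bckdhb and Dbt. They were chosen by name as a pathway set, not by a rule on their values, though with earlier results of these data known. All 8 were found among the 43346 mouse genes of the deposited tables. Each of 2 libraries was built from whole-heart RNA of a B6NCrl mouse at postnatal day 0, with no treatment named, and an input of 13 pg (1 cell-equivalent in the labels, RNA above 200 nt). Pup 1 gave replicate 1 and pup 3 gave replicate 2, under 1 shared donor identifier. The 2 libraries form 1 group with no contrast, so levels are given per library and no test was made. A difference between them joins the hearts, the RNA aliquots and the amplifications.

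In ketone use, beta-hydroxybutyrate from the blood enters through a monocarboxylate transporter, is oxidised to acetoacetate, receives coenzyme A from succinyl-CoA and is split to acetyl-CoA. In branched-chain amino acid use, leucine, isoleucine and valine first lose their amino group, and the resulting keto acids are then decarboxylated by the branched-chain keto acid dehydrogenase complex. That complex resembles pyruvate dehydrogenase in build and is switched off by a kinase and on by a phosphatase. The milk diet that begins at birth is rich in fat, and ketone bodies circulate in suckling mice.

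Oxct1 and Bcat2 were each assigned to 2 main coding models that differ by a stretch within the protein-coding sequence. Those stretches are shown because reads were divided between the models in both libraries. The models differ outside the stretches too: 1784 bases of Oxct1-201 are not in Oxct1-205, and Bcat2-201 has 1772 bases against 1536 for Bcat2-202. The shares of the models may therefore rest on other bases, and reads over the stretches alone were not counted. In Bcat2, the extra 15 bases (5 codons, in frame) lie at the start of exon 5 of Bcat2-201, at chr7:45585111-45585125 (mm10, plus strand), and are missing from Bcat2-202. In Oxct1, exon 16 of Oxct1-201, at chr15:4147565-4147666 (mm10, plus strand), adds 102 bases (34 codons, in frame) that Oxct1-205 lacks. Capitals mark the added stretch, and lower case marks 24 coding bases on either side, from the GENCODE M21 transcript sequences.
Bcat2-201: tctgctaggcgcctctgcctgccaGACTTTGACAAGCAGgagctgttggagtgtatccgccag
Bcat2-202: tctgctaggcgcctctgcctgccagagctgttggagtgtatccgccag
Oxct1-201: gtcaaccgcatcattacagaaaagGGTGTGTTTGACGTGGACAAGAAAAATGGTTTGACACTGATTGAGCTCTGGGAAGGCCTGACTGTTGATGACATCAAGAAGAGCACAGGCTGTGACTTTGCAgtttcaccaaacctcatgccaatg
Oxct1-205: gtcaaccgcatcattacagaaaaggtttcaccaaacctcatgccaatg

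Levels are in TPM, transcripts per 1000000 over mouse genes, which divides reads by transcript length and so allows genes to be compared. Of the 8 members, 6 reached 1 TPM in both libraries, the level called read here, against 15.3% of all mouse genes and 28.4% of 21474 protein-coding genes. Bdh1 and Dbt were below 1 TPM in both. Together the members held 0.0614% (replicate 1) and 0.115% (replicate 2) of all TPM. Replicate 1 held 39671930 expected counts on mouse genes and replicate 2 held 32751851. The heart markers were present, with 6 of 6 cardiomyocyte genes read in both libraries.

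Acat1 had the highest level of the set in either library. It encodes mitochondrial acetoacetyl-CoA thiolase, which splits acetoacetyl-CoA at the end of ketone use and also serves isoleucine breakdown. The gene (chromosome 9, 53580522 to 53610382, minus strand, mm10) stood at 215 TPM in replicate 1 and 363 in replicate 2, or 289 ± 105 (SD, n = 2), from 22906 and 32580 counts. By mean TPM it ranked 439 among protein-coding genes. Nearly all of it lay on 1 model, Acat1-201, at 99.88% and 99.03% of the gene's TPM.

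Oxct1 encodes succinyl-CoA:3-ketoacid CoA transferase, the step that commits a cell to burning ketone bodies and that ketone-making liver cells lack. The gene (chromosome 15, 4026383 to 4155344, plus strand) had 123 TPM in replicate 1 and 305 in replicate 2, or 214 ± 128 (SD, n = 2). The counts behind these were 7150 and 15522. Oxct1 was below Acat1 in both libraries, at −0.80 and −0.25 on the log2(TPM + 1) scale, a mean difference within 2 SD of the pair. The testis relatives of Oxct1 were not read, with 0 counts of Oxct2a in either library and 1 count of Oxct2b in replicate 1.

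Slc16a1 encodes MCT1, a proton-linked carrier of lactate, pyruvate and ketone bodies. It lies on chromosome 3 (104638668 to 104658462, plus strand) and had 31.5 TPM in replicate 1 and 66.7 in replicate 2, or 49.1 ± 24.9 (SD, n = 2), from 4406 and 7906 counts. It was the lowest of the 3 ketone members that were read. Bsg, which encodes the basigin protein that carries MCT1 to the cell surface, was far higher and nearly equal in the libraries, at 974 and 1006 TPM. Slc16a3, the gene of the lactate exporter MCT4, had 21.1 and 2.73 TPM, so that Slc16a1 exceeded it by 0.56 on the log2 scale in replicate 1 and by 4.18 in replicate 2.

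Bdh1 was the exception among the ketone genes. It encodes the mitochondrial beta-hydroxybutyrate dehydrogenase, which opens the path from beta-hydroxybutyrate, and lies on chromosome 16 (31422280 to 31458901, plus strand). Replicate 1 held 2 counts (0.104 TPM) and replicate 2 held 0. A count of 0 in replicate 2 allows up to 0.0916 counts per 1000000 (3 counts), which covers counting error only. Of the 2 counts, 1 fell on the processed transcript Bdh1-204 and 1 on the coding model Bdh1-206. Bdh2, a cytosolic relative, had 21.9 TPM from 718 counts in replicate 1 and 0 counts in replicate 2. No ratio is given for pairs with a gene at 3 counts or fewer in a library. Missing genes were common at this input: of the genes at 10 TPM or more in either library, 21.1% had under 3 counts in the other. A count near 0 here therefore sets no upper limit on Bdh1 RNA in the hearts.

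Bcat2, the mitochondrial branched-chain aminotransferase that removes the amino group in muscle and heart, was the steadiest member. The gene (chromosome 7, 45570153 to 45589711, plus strand) had 176 TPM in replicate 1 and 184 in replicate 2, or 180 ± 5.74 (SD, n = 2), from 8930 and 7958 counts. Its cytosolic counterpart Bcat1, known from brain and growing tissues, had 1.30 TPM from 32 counts in replicate 1 and 1 count in replicate 2. The mitochondrial form was thus the higher of the pair as read in both libraries, but with 1 count of Bcat1 in replicate 2 no ratio is given.

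Bckdha and Bckdhb encode the alpha and beta subunits of E1, the decarboxylase of the dehydrogenase complex, which joins them in equal number. Bckdha (chromosome 7, 25629946 to 25658981, minus strand) had 60.8 TPM in replicate 1 and 49.8 in replicate 2, or 55.3 ± 7.78 (SD, n = 2), from 3289 and 2286 counts. Bckdhb (chromosome 9, 83925145 to 84124240, plus strand) had 6.73 TPM in replicate 1 and 185 in replicate 2, from 297 and 5240 counts. The 2 libraries therefore gave opposite orders: Bckdha exceeded Bckdhb by 3.00 on the log2 scale in replicate 1 and was below it, at −1.87, in replicate 2. A part of the value of Bckdhb in replicate 2 lay on a short noncoding model, and on coding models alone Bckdhb had 6.68 and 118 TPM.

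Dbt encodes E2, the transacylase core around which the E1 and E3 subunits assemble. It lies on chromosome 3 (116513070 to 116549981, plus strand) and was low in both libraries, at 0.531 TPM in replicate 1 and 0.757 in replicate 2, or 0.644 ± 0.159 (SD, n = 2). The reads behind it were few but present, 55 and 66 counts on its single model of 3296 bases. Bckdha exceeded Dbt by 5.10 ± 0.34 on the log2(TPM + 1) scale, in the same direction in both libraries, and by 6.23 with a pseudocount of 0.1. The RefSeq gene on the same assembly has the same bounds as the GENCODE gene, and why the level was low was not tested.

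**Figure D1:**
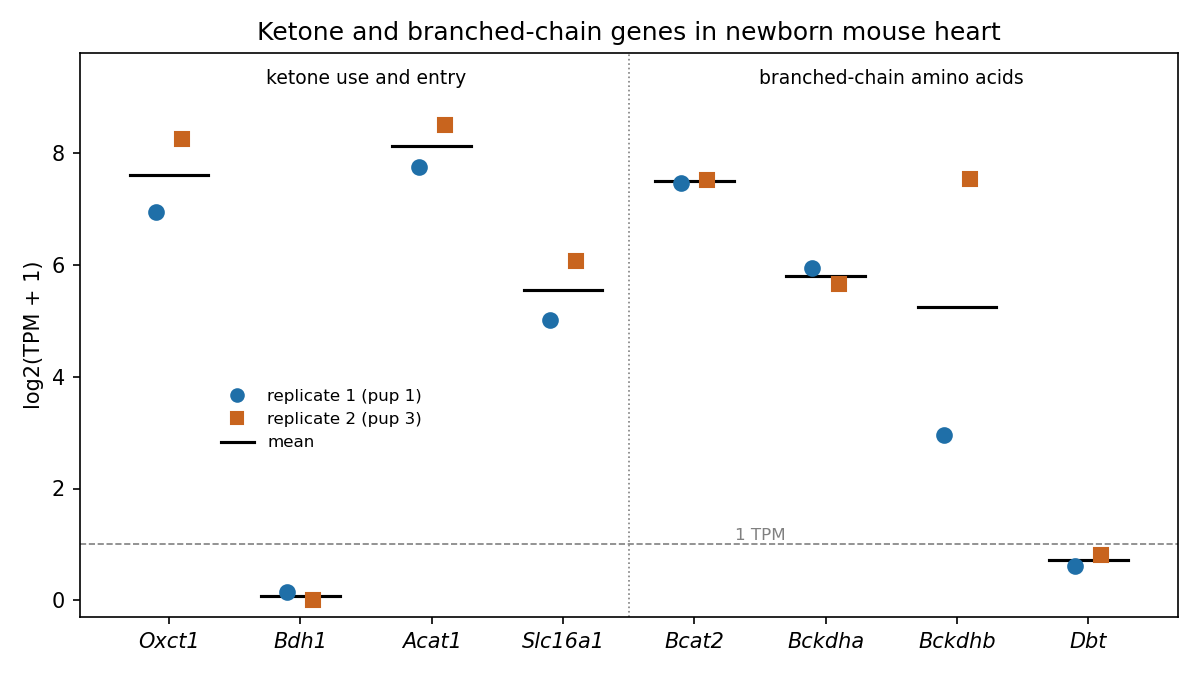
Level of each gene as log2(TPM + 1) on the vertical axis, with 1 point per library and a line at the mean of the 2 libraries. Oxct1 and Acat1 sit high in both libraries, Bdh1 and Dbt lie below the dashed line at 1 TPM, and Bckdhb has its points far apart at 6.73 and 185 TPM.

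By mean TPM the order was Acat1, Oxct1, Bcat2, Bckdhb, Bckdha, Slc16a1, Dbt and Bdh1. Acat1 was first, Dbt next to last and Bdh1 last in each library. Acat1 was above Oxct1 in each library, though within 2 SD of the pair. From Oxct1 down to Slc16a1, each pair of neighbours changed order between the libraries, so the order of neighbours is not resolved. Oxct1 and Bcat2 were each above Bckdha and Slc16a1 in both libraries. Slc16a1, with its lowest value at 31.5 TPM, lay apart from Dbt, whose highest value was 0.757 TPM. Dbt in turn lay above Bdh1 in both libraries.

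Between the libraries, the log2 ratio of TPM + 1, replicate 2 over replicate 1, was 1.30 for Oxct1, 0.75 for Acat1, 1.06 for Slc16a1, 0.06 for Bcat2, −0.28 for Bckdha and 4.59 for Bckdhb. Of the 6 members that averaged at least 5 TPM, 3 (Oxct1, Slc16a1 and Bckdhb) were over 2-fold apart, against 54.6% of the 8266 mouse genes at that level. All 3 were higher in replicate 2, a direction taken by 27.7% of those genes, and 26.9% were over 2-fold lower. The count of members apart was thus near the share over all genes that averaged at least 5 TPM, which takes in many lower genes. All 6 members averaged between 30 and 300 TPM, where the share apart was smaller. It was 42.6% of genes at 30 to 100 TPM and 24.3% at 100 to 300 TPM. The median log2 ratio of the 6 was 0.91, and over all genes at that level it was 0.01. Slc16a1 was close to the limit, at 0.99 with TMM scaling and 0.95 with DESeq2 scaling, which left 2 members over 2-fold apart.

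Set against genes of the same level, Bckdhb stood furthest out. The SD of the log2 ratio was 1.71 over 2109 genes at 30 to 100 TPM, and Bckdhb differed by 4.59. Oxct1 differed by 1.30 where the SD over 779 genes at 100 to 300 TPM was 0.93, and Acat1, at 0.75, was within it. Slc16a1, Bckdha and Bcat2 were also within 1 SD of genes at their level. The summed level of the 6 cardiomyocyte markers was 36020 TPM in replicate 1 and 59267 in replicate 2, so it was higher in the same library as the 3 ketone members that were read, and its part in their difference was not tested. Summed fibroblast markers stood at 1010 and 878 TPM and endothelial markers at 489 and 380 TPM. Smooth muscle and pericyte markers went the other way, at 36.9 and 80.1 TPM. Erythroid markers, at 3870 and 3865 TPM, and macrophage markers, at 93.0 and 88.2 TPM, were close in the libraries. In RNA from a whole heart, fewer cells of a type and less RNA per cell cannot be told apart.

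**Figure D2:**
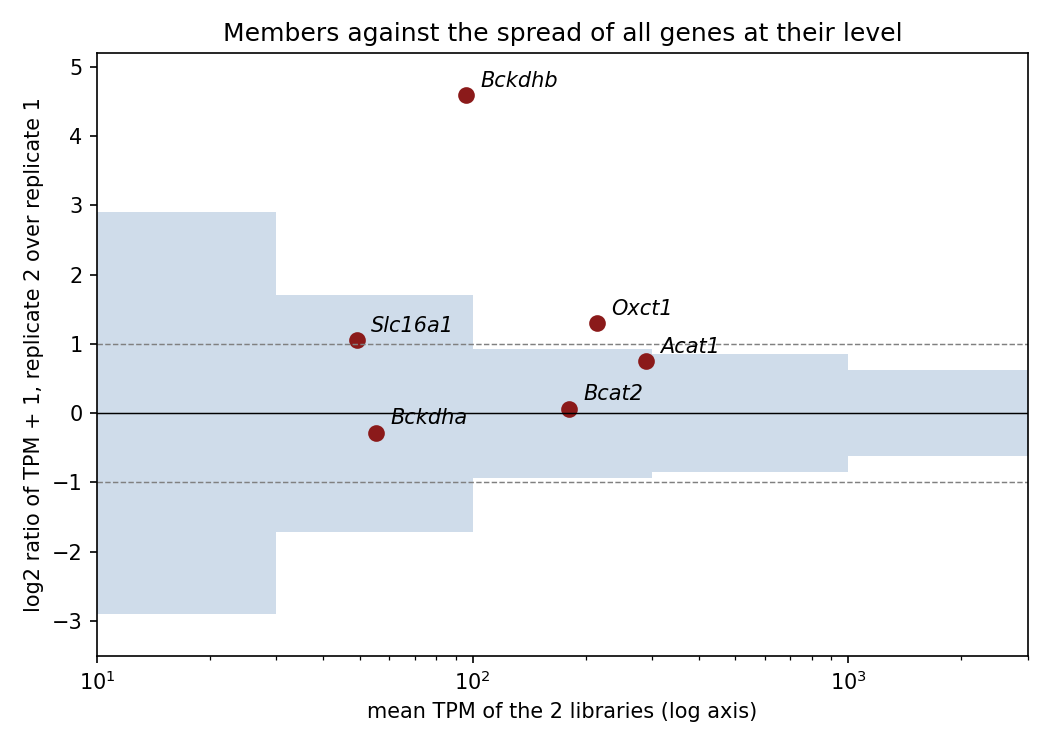
The vertical axis gives the log2 ratio of TPM + 1, replicate 2 over replicate 1, and the horizontal axis the mean TPM on a log scale, for the 6 members that averaged at least 5 TPM. The shaded band is 1 SD of the log2 ratio either side of 0 over all mouse genes at that level, the dashed lines mark 2-fold, and Bckdhb at 4.59 lies outside the band by the widest margin.

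Of the other genes of the branched-chain dehydrogenase step, the E3 subunit and the kinase were read evenly and the phosphatase was not. Dld, the E3 subunit that is shared with the pyruvate and 2-oxoglutarate complexes, had 256 TPM in replicate 1 and 322 in replicate 2. Bckdk, the kinase that switches the complex off, had 192 and 237 TPM. Ppm1k, the phosphatase that switches it on, had 2 counts in replicate 1 and 1640 counts in replicate 2. Kinase RNA was thus the higher of the 2 as read in either library, but with 2 counts of Ppm1k in replicate 1 no ratio is given. Of the 8 genes in the list of transamination, complex and control, 5 reached 1 TPM in both libraries, beside 28.4% of protein-coding genes. Another 2 did so in 1 library (Bcat1 and Ppm1k) and 1, Dbt, in neither.

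The matching subunits of pyruvate dehydrogenase, the complex that feeds glucose carbon into the same cycle, stood higher. Pdha1, its E1 alpha gene, had 525 and 494 TPM and exceeded Bckdha by 3.19 ± 0.14 on the log2 scale, a 9.10-fold difference that was alike in the 2 libraries. Pdhb, its E1 beta gene, had 1129 and 861 TPM, and its ratio to Bckdhb was 7.19 in replicate 1 and 2.21 in replicate 2 on that scale. The E2 gene Dlat had 231 and 71.4 TPM and exceeded Dbt by 6.30 ± 1.33. Dlst, the E2 gene of the 2-oxoglutarate complex, had 207 and 139 TPM. The list of sister subunits and pyruvate dehydrogenase kinases was complete, with 11 of 11 genes read at 1 TPM or above in each library, beside 28.4% of protein-coding genes. Of these, 4 (36.4%) were over 2-fold apart, beside 54.6% of all mouse genes that averaged at least 5 TPM. That share takes in many lower genes, while the 11 averaged between 30 and 1000 TPM. There it was 42.6% at 30 to 100 TPM, 24.3% at 100 to 300 TPM and 14.1% at 300 to 1000 TPM. Pdk1 was the furthest apart, at 85.2 and 10.8 TPM. Dbt was therefore the one E2 gene of the 3 complexes that was not read at 1 TPM.

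**Figure D3:**
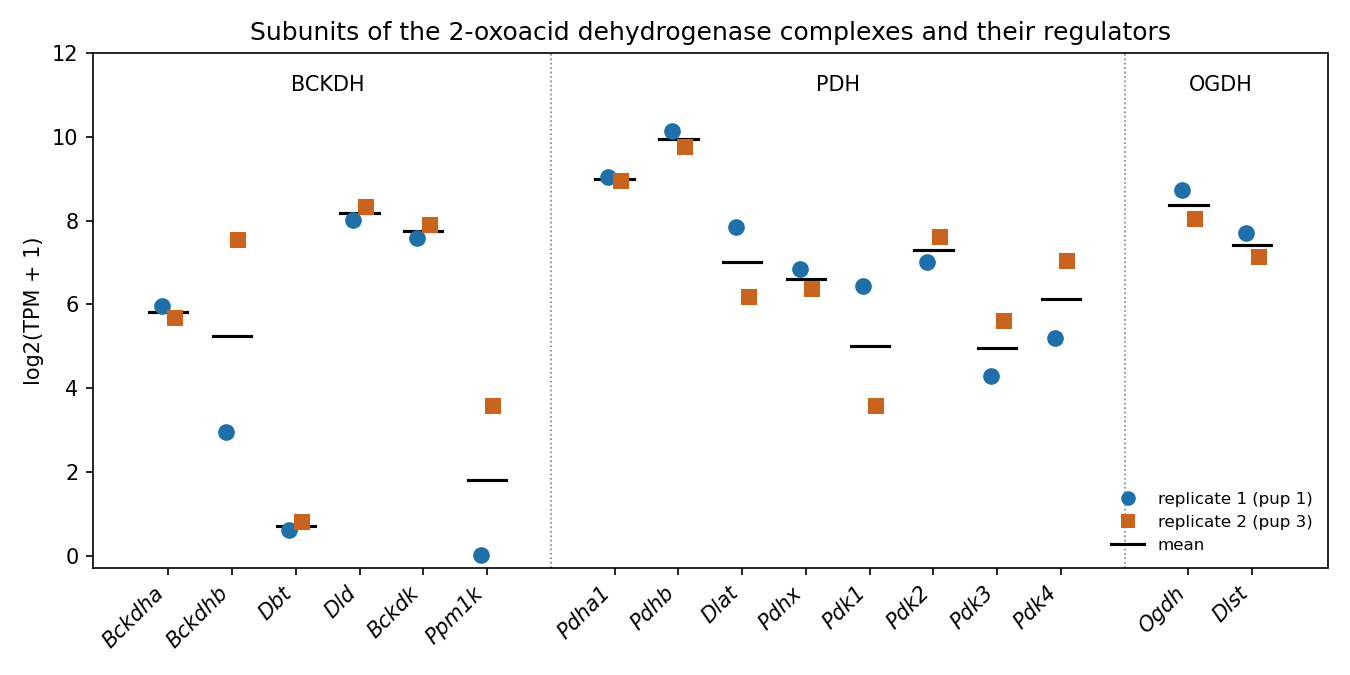
Levels as log2(TPM + 1) for subunits and regulators of the branched-chain (BCKDH), pyruvate (PDH) and 2-oxoglutarate (OGDH) dehydrogenase complexes, with 1 point per library and a line at the mean. Dld is drawn once, under BCKDH, and Dbt lies lowest among the subunits, at 0.531 and 0.757 TPM.

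Of the 16 gene pairs, 8 could be compared in both libraries and 3 kept 1 direction with a mean beyond 2 SD: Bckdha over Dbt, Pdha1 over Bckdha and Dlat over Dbt. With n = 2 this rule only describes the libraries at hand.

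Reads of 4 members with several models were divided by the authors' estimates, and all 4 (Oxct1, Acat1, Bcat2 and Bckdhb) had the same leading model in both libraries by share of TPM. Bcat2-201, with the 15 bases shown above, held 47.7% and 53.3% of the gene's TPM (50.5 ± 3.97%, n = 2), and Bcat2-202, without them, held 42.1% and 36.8% (39.4 ± 3.75%). Another 7.79% and 9.78% lay on a model that GENCODE M21 no longer lists, and 2.41% of replicate 1 on a second such model. Whether these hold the stretch was not determined, and in replicate 1 they exceed the gap between the listed forms, so which form led there is not settled.

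For Oxct1, the model that skips exon 16, Oxct1-205, had the largest share of TPM, at 48.2% and 40.4% (44.3 ± 5.54%, n = 2), and the full-length Oxct1-201 held 26.5% and 31.8%. By expected counts, which take no account of length and so give more weight to the longer Oxct1-201 (3527 bases against 1743), the order was the reverse: Oxct1-201 held 50.5% and 58.6%, and Oxct1-205 held 44.1% and 35.7%. Oxct1-202, a noncoding model of 480 bases that contains exon 16, took 5.37% and 5.71% of the counts but 25.3% and 27.9% of the TPM. The TPM of Oxct1 on its coding models alone was 92.0 and 220. The estimates thus place reads on models with and without exon 16 in both libraries. Which of the 2 coding models leads depends on the unit. Oxct1-201 and Oxct1-202, which hold exon 16, together took more of the TPM and of the counts than Oxct1-205 in each library. Reads over exon 16 itself were not counted, so these shares do not measure how often it was included.

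For Bckdhb, replicate 1 placed 99.23% of TPM on Bckdhb-201, while replicate 2 divided it among Bckdhb-201 (42.3%), the noncoding Bckdhb-203 (36.5%) and Bckdhb-206 (21.2%). Bckdhb-201 and Bckdhb-206 differ by 5 bases at the first exon in GENCODE M21, so this split rests on little sequence. The authors' posterior means of the same shares did not show the contrast, with 43.1% of replicate 1 and 43.0% of replicate 2 on Bckdhb-201, and 37.1% and 20.2% on Bckdhb-206. Bckdhb-203 held 5.27% of replicate 1 and 35.2% of replicate 2 by posterior means. Bckdhb-203 shares all but 33 of its 540 bases with Bckdhb-201 and covers the 3′ end of the gene. Replicate 1 had 297 counts in all, so its shares come from few reads.

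**Figure D4:**
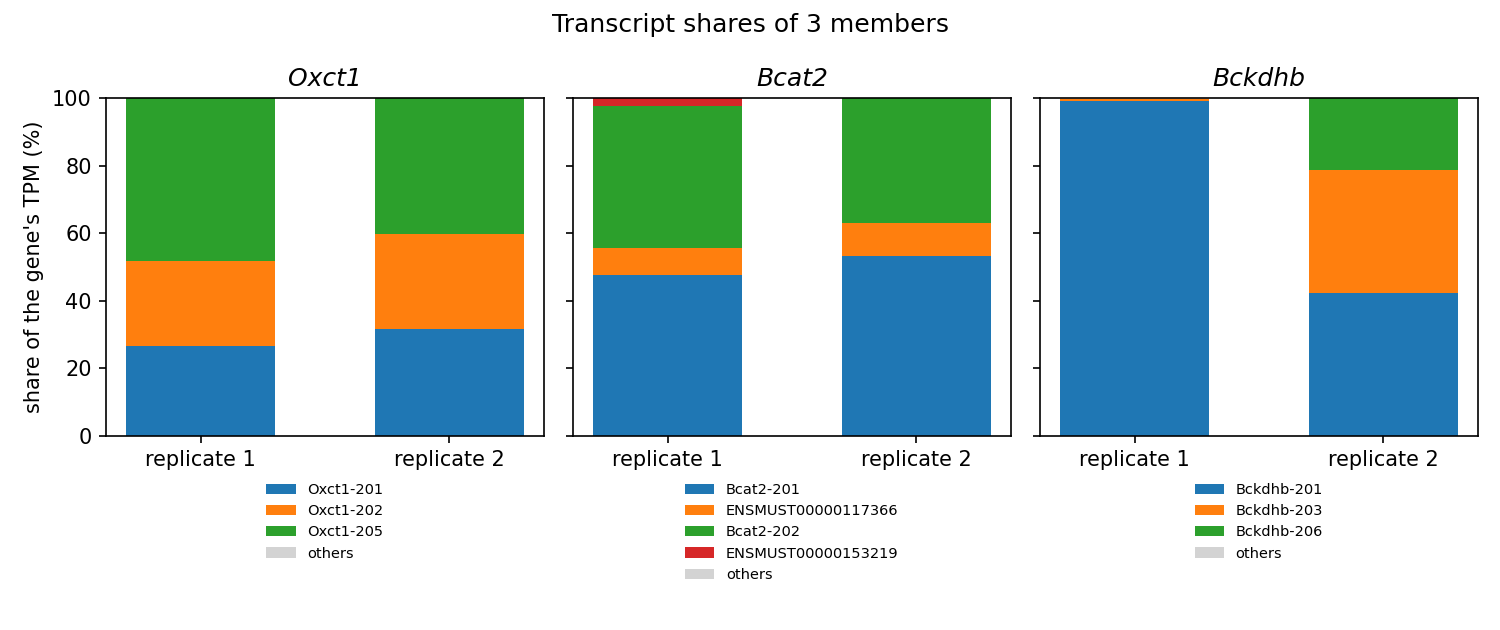
Bars give the share of each gene's TPM, in percent, assigned to its models in each library, for Oxct1, Bcat2 and Bckdhb. The shares of Oxct1 and Bcat2 are close in the 2 libraries, while Bckdhb-201 holds 99.23% in replicate 1 and 42.3% in replicate 2, a contrast that posterior means (43.1% and 43.0%) do not show.

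Reads were assigned to the members with little ambiguity between genes, since the posterior SD of the count was at most 3.85 for any of them. Some member exons overlap other annotated genes on the opposite strand. The antisense gene 0610005C13Rik shares 622 exon bases with Bcat2, and its level was not analysed here. B3gnt8 shares 1171 exon bases with Bckdha and was at 0 TPM in both libraries, and so was Gm15743, which shares 533 with Bdh1. BC037032 shares 467 bases with Oxct1 and had 3.98 and 0.429 TPM. Strand was not stated for the counting, so reads of such pairs cannot be told apart by strand.

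Relatives of the ketone enzymes, which act outside mitochondrial ketone use or in testis, were low or missing in part. Of the 7 genes of this list, 4 were below 1 TPM in both libraries, and Bdh2 and Acat2 were below it in replicate 2. Hmgcs1 was the 1 gene of the 7 read in both libraries, at 22.1 TPM in replicate 1 and 49.2 in replicate 2. Of all protein-coding genes, 28.4% were read in both. Acat2, the cytosolic thiolase, had 39.2 TPM in replicate 1 and 0.0307 in replicate 2. The liver markers Alb, Afp and Apoa1 were at 0 counts in both libraries, and the 4 liver markers summed to 0.719 and 0.358 TPM.

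The enzymes downstream of the dehydrogenase were read nearly in full. Of 17 genes, 15 reached 1 TPM in both libraries, beside 28.4% of protein-coding genes, and the other 2, Auh and Hibch, in 1. Leading genes were Echs1, a hydratase shared with fatty acid oxidation (454 and 290 TPM), Acat1, and Hsd17b10, which acts on isoleucine (232 and 209 TPM). The leucine enzymes Ivd (53.7 and 44.4 TPM) and Mccc1 (78.2 and 66.6 TPM) were close in the libraries. Of the 17, 4 were over 2-fold apart, a share of 23.5%, beside 54.6% of all mouse genes that averaged at least 5 TPM. The 17 averaged between 10 and 1000 TPM. In that range the share fell from 61.0% of genes at 10 to 30 TPM to 14.1% at 300 to 1000 TPM. The largest gap was at Hibch, a valine enzyme with 105 TPM in replicate 1 and 0.164 TPM (7 counts) in replicate 2. Auh, a leucine enzyme, had the opposite order, at 0.823 and 30.3 TPM, as did Mut, methylmalonyl-CoA mutase, with 120 and 3235 counts.

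Of 8 amino acid carrier genes, 2 were at 1 TPM or above in both libraries, near the share of 28.4% over all protein-coding genes. Slc25a44, the mitochondrial carrier of branched-chain amino acids, had 14.8 TPM in replicate 1 and 42.7 in replicate 2. Slc3a2, the heavy chain of the LAT carriers at the cell surface, had 40.2 and 1.96 TPM. Its light chains Slc7a5 (536 counts) and Slc7a8 (1273 counts) were read in replicate 1 and had 0 counts in replicate 2, while Slc43a2, another neutral amino acid carrier, was at 37.8 TPM in replicate 2 with 0 counts in replicate 1. The 4 genes of this list that averaged at least 5 TPM were each over 2-fold apart, in both directions, beside 54.6% of all such mouse genes. At their levels the share was 81.2% (3 to 10 TPM) and 61.0% (10 to 30 TPM). For Slc7a8 and Slc43a2 a gap over 2-fold was fixed in advance, since with 0 counts in 1 library they passed the mean filter through the other alone. Among monocarboxylate carriers, the mitochondrial pyruvate carrier genes Mpc1 (693 and 565 TPM) and Mpc2 (402 and 546 TPM) were high. In that list 6 of 11 genes, among them Slc16a7 and the MCT partner Emb, had 0 counts in both. Over all, 10050 of 21474 protein-coding genes had 0 counts in both.

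**Figure D5:**
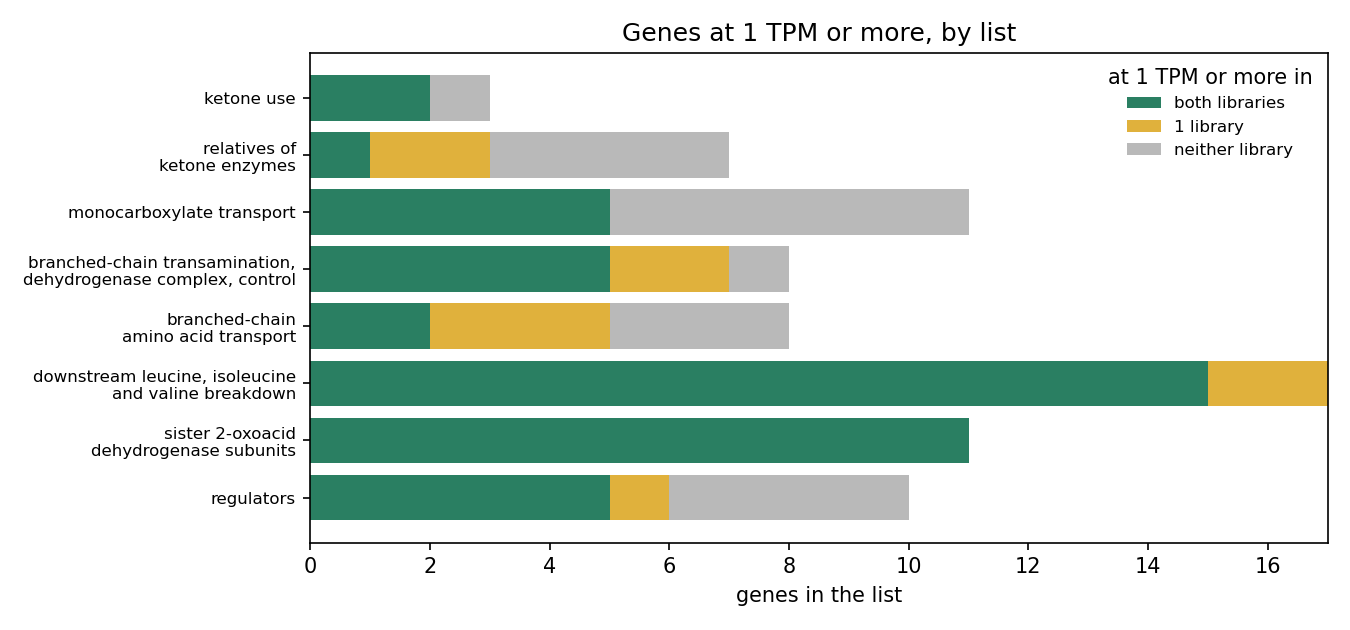
Horizontal bars count the genes of each list at 1 TPM or more in both libraries, in 1 or in neither. The downstream breakdown list has 15 of 17 in both and the sister complexes 11 of 11, while branched-chain amino acid transport has 2 of 8. The share in both libraries over all protein-coding genes was 28.4%.

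Over all 73 genes of the lists, counted once each, 44 were read in both libraries, beside 28.4% of protein-coding genes, 10 in 1 and 19 in neither. Of the 52 that averaged at least 5 TPM, 24 (46.2%) differed more than 2-fold, 14 higher and 10 lower in replicate 2, beside 54.6% of all mouse genes at that level. These shares were not matched for level. Over all mouse genes the share fell from 81.2% at 3 to 10 TPM to 14.1% at 300 to 1000 TPM. Of the 51 list genes at 10 TPM or more in either library, 6 had under 3 counts in the other: Bdh2, Acat2, Ppm1k, Slc7a8, Slc43a2 and Pparg. These 6 are among the 24 over 2-fold apart. Their gap was fixed in advance, since they passed the mean filter through 1 library alone. The 54.6% of all mouse genes includes such genes too. That share of 11.8% stood beside 21.1% of all mouse genes at 10 TPM or more in either library.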

How the data were processed

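RNA was sequenced in 2 libraries of newborn mouse heart, with a Smart-seq protocol named in the labels. Per the file headers, the tables deposited by the authors hold expected counts, posterior means, TPM scaled over all features and, for transcripts, shares of a gene in percent. Deposited notes name mm10 and GENCODE M4, and which aligner and quantifier were used is a point not given in the sources used here. TPM was rescaled to 1000000 over rows of mouse genes. GENCODE M21, on that assembly, supplied names, models and positions.

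Depth was 40648662 and 33173354 expected counts, spike-ins included. Ratios used log2(TPM + 1), which understates differences of low genes. Genes were called read at 1 TPM, and pairs described as different when both libraries had 1 sign and the mean exceeded 2 SD. No molecular identifiers are named, so limits on counts cover counting error only. Scaling factors came from edgeR 4.0.16 and DESeq2 1.42.0 on counts rounded to whole numbers, with Python 3.11.15 and R 4.3.3, and the spread by level and the factors were tested on simulated data. The members, lists and pairs were chosen with earlier results of these data known. Named genes are the members, the pairs, and from each list the 4 highest, the most different and those missed by 1 library, of which a selection is printed. Some genes of the lists and their pairs are not reported here, and counts leave them out.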

Additional observations from a re-analysis of the deposited data

How the results depend on the processing

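No paired analysis was possible because the libraries form 1 group. Counts of members and list genes read or over 2-fold apart, of pairs described as different and of shared leading transcripts stayed within 1.5 times their values under each alternative run for them, among the pseudocount of 0.1, other thresholds, counts per 1000000, posterior means and TMM and DESeq2 factors, and so did the counts of genes read when either replicate was left out. Under the alternatives that keep both replicates, the summed level and the median ratio of the members moved by less than their spread, as did 87 values for single genes, pairs or transcripts, while 9 moved by more. With n = 2, a mean without 1 replicate always lies within 1 SD, so leaving one out shows nothing on stability: the summed level was 613.9 and 1154 TPM, Bckdhb 6.73 and 185 TPM, and Bckdha over Bckdhb 3.00 and −1.87 (log2), a turn in sign. In counts per 1000000, not divided by length, the log2 ratio of Oxct1 over Acat1 was −1.37 and that of Pdha1 over Bckdha 3.90, and Oxct1 and Acat1 then passed the pair rule. Posterior means put Bdh1 at a mean of 0.310 TPM. The mean shares of Bckdhb-201 and Bckdhb-206 were 43.1% and 28.7% by posterior means (Bckdhb-201 held 70.8% by TPM), and the shares of Oxct1-201 and Oxct1-202 were 54.5% and 5.54% by expected counts. Scaling without mitochondrially encoded genes put Bcat2 at 206.6 and Bckdha at 63.5 TPM. Depth limits a count of 0 to 0.0756 counts per 1000000 in replicate 1 and 0.0916 in replicate 2.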

Other observations

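Genes that regulate fuel use, a list of 10, were read in both libraries for 5 members, beside 28.4% of protein-coding genes. Sirt3, the mitochondrial deacetylase, stood at 85.8 TPM in replicate 1 and at 148 TPM in replicate 2, and Ppargc1a, the coactivator of mitochondrial genes, had 109 and 43.6 TPM. Klf15, a regulator of branched-chain amino acid breakdown, was low and close in the libraries, at 4.61 and 5.92 TPM. Ppara, the fatty acid receptor that controls ketone genes in liver, had 1.83 and 30.3 TPM, and Pparg had 0 counts and 17.9 TPM. Within these 10 genes the largest log2 difference was that of Pparg, at 4.24, followed by Ppargc1b, at −3.53 (55.8 and 3.91 TPM). The receptor genes Hcar1, Hcar2 and Ffar3, which sense lactate, beta-hydroxybutyrate and short-chain fatty acids, had 0 counts in both libraries.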
